A study of Arabidopsis thaliana with 12 samples.

Results

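The 10 genes described here act in the Arabidopsis thaliana stomatal lineage, the series of divisions in the young leaf epidermis that ends in a pair of guard cells around a pore. They were taken by gene ID from the count and TPM tables: SPCH (AT5G53210), BASL (AT5G60880), EPF2 (AT1G34245), TMM (AT1G80080), MUTE (AT3G06120), FAMA (AT3G24140), EPF1 (AT2G20875), ICE1 (AT3G26744), SDD1 (AT1G04110) and STOMAGEN (AT4G12970). They are 10 of the 27436 genes listed, and all 10 passed the filter on low counts that left 23330 genes tested. For the comparison of early with late lineage steps, SPCH, BASL, EPF2 and TMM were grouped as early and MUTE, FAMA and EPF1 as late, while ICE1, SDD1 and STOMAGEN stood outside both groups.

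The RNA came from whole 7-day-old seedlings, grown untreated on half-strength MS medium with 1% sucrose, of 4 genotypes with 3 libraries each. The control was the wild type (WT), ecotype Col-0. Either 2 or 3 members of PNET2, a small family of nuclear membrane proteins, were mutated in the others: pnet2_ac and pnet2_bc are double mutants, and pnet2_abc is the triple mutant. The sources used here do not give the alleles, the number of lines or the background ecotype of the mutants. Whole seedlings hold roots, hypocotyl, cotyledons and first leaves, so cells of the stomatal lineage were a part of each sample that was not measured.

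In a developing leaf, the basic helix-loop-helix (bHLH) factor SPCH starts the lineage through asymmetric entry divisions, MUTE then ends those divisions and commits the precursor, and FAMA sets the last division and guard cell identity. Each of these factors pairs with ICE1 (also called SCREAM) or its close relative SCRM2. Secreted peptides set how many stomata form and how they are spaced: EPF2 and EPF1 restrain the lineage from within the epidermis, STOMAGEN comes from the underlying mesophyll and promotes it, and both kinds act on receptors of the ERECTA family together with TMM.

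Promoter sequences of 6 of the genes are shown because the lineage factors are bHLH proteins, a class known to bind E-boxes. Whether E-boxes bear on the levels in any genotype was not tested. Each is the stretch of 250 bases just before the annotated gene start, on the gene's own strand, from RefSeq for assembly TAIR10.1, with every E-box (CANNTG, which reads the same way on both strands) in capitals. SPCH and STOMAGEN have none in this window, BASL and MUTE 1, FAMA 2 and EPF2 3.
SPCH promoter, chr5:21589256-21589505, minus strand: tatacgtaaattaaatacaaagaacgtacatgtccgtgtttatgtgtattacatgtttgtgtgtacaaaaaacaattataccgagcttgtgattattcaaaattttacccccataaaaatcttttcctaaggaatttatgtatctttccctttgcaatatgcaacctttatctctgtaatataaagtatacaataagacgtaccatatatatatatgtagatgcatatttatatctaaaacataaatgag
BASL promoter, chr5:24489837-24490086, minus strand: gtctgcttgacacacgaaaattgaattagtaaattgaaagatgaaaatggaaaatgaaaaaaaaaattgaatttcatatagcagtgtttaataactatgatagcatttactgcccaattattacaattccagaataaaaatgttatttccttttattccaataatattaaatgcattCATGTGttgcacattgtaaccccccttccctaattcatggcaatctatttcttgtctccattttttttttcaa
EPF2 promoter, chr1:12472618-12472867, plus strand: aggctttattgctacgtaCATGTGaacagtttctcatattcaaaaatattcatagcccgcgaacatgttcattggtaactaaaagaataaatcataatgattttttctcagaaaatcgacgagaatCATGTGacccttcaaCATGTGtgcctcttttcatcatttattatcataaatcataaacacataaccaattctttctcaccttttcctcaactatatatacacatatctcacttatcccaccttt
MUTE promoter, chr3:1846192-1846441, plus strand: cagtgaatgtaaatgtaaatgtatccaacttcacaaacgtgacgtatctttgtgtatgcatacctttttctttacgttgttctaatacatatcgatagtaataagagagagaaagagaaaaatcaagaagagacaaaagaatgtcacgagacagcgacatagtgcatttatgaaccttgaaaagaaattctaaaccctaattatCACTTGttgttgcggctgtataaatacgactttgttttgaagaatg
FAMA promoter, chr3:8718212-8718461, minus strand: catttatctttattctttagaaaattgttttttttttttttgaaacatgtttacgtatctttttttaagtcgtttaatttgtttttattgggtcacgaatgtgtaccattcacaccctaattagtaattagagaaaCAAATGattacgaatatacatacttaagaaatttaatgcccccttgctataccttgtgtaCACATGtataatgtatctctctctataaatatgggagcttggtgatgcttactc
STOMAGEN promoter, chr4:7587100-7587349, minus strand: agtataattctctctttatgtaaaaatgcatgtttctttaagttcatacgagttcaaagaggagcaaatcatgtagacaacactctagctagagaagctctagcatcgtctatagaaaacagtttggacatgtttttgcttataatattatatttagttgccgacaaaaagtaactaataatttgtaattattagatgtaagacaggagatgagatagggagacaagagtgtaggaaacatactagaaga

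All 3 E-boxes of EPF2 and the single one of BASL read CATGTG on the strand shown, and they lie 232, 124 and 109 bases before the start of EPF2 and 73 before that of BASL. The E-box of MUTE lies 46 bases and those of FAMA 114 and 54 bases before the start. Of the other 4 genes, EPF1 has 2 E-boxes, SDD1 1 and TMM and ICE1 none. Among 27443 protein-coding promoters of the same length, 55.3% hold at least 1 E-box and 5.69% hold 3 or more. A perfect G-box (CACGTG), itself an E-box and present in 6.49% of promoters, is in none of the 10 windows. These matches describe letters and not bound sites, and no other annotated gene reaches into the windows.

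The genes themselves are spread over all 5 chromosomes. In TAIR10.1, SPCH lies at chr5:21586219-21589255 (minus strand), BASL at chr5:24488289-24489836 (minus strand), EPF2 at chr1:12472868-12473974 (plus strand), TMM at chr1:30127819-30129649 (minus strand) and MUTE at chr3:1846442-1848259 (plus strand). FAMA lies at chr3:8715118-8718211 (minus strand), EPF1 at chr2:8982863-8983814 (minus strand), ICE1 at chr3:9832667-9835279 (minus strand), SDD1 at chr1:1061297-1063809 (minus strand) and STOMAGEN at chr4:7585869-7587099 (minus strand). TMM and SDD1 have a single exon, and the others have between 2 and 6 per transcript. No other annotated gene overlaps any of the 10, on either strand.

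Library totals ran from 65758625 to 115881203 counts, so that 3 counts, the limit that a count of 0 allows, corresponded to 0.0262 to 0.0436 CPM (counts scaled to a common library size, adjusted by TMM). Each lineage gene stood far above that limit in all 12 libraries. As a check of the genotypes, the 3 genes annotated with the domain DUF2215 were read as the PNET2 family, without knowing which is A, B or C. AT3G49840 ranged from 8.03 to 10.8 CPM in WT and from 2.09 to 2.31 in pnet2_abc, AT5G67610 from 18.9 to 23.6 and from 10.6 to 12, and AT1G28760 from 3.65 to 4.48 and from 42.4 to 54.1. In pnet2_ac they ranged from 6.36 to 7.31, from 20.9 to 24.1 and from 4.78 to 5.82 CPM, the first below and the last above WT without overlap. In pnet2_bc they ranged from 5.48 to 8.33, from 14.3 to 15.4 and from 3.81 to 4.8 CPM, the second below WT without overlap. Of all tested genes, 9.91% lay lower and 9.73% higher without overlap in pnet2_ac, and 8.35% lower in pnet2_bc. Transcript level does not tell whether a mutated gene still makes protein. The labels number the libraries without saying whether different plants went into each, so a p-value here reflects the spread between these libraries, which may be technical.

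In WT the 10 genes spanned more than an order of magnitude in TPM, the length-corrected unit used for levels between genes. ICE1 (50.3 ± 6.43 TPM, SD, n = 3) and STOMAGEN (48.8 ± 6.30) were highest, followed by TMM (20.8 ± 3.72) and EPF2 (13.8 ± 3.79). SPCH stood at 9.61 ± 0.487 TPM, BASL at 9.07 ± 1.93, FAMA at 6.5 ± 1.15 and MUTE at 4.53 ± 1.67. SDD1 (3.26 ± 0.274) and EPF1 (3.19 ± 0.212) were lowest. Between neighbours in this order, the libraries were fully apart only from STOMAGEN to TMM and from EPF2 to SPCH. The bHLH series therefore ran SPCH, FAMA, MUTE from high to low, with the libraries of FAMA and MUTE overlapping.

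In the double mutants ICE1, STOMAGEN, TMM and EPF2 again held the top 4 places, which they did not in the triple mutant. In pnet2_ac ICE1 and STOMAGEN led at 48.8 and 44.9 TPM and EPF1 was last at 2.55, and in pnet2_bc they led at 47.0 and 47.6 TPM and MUTE was last at 3.04. In pnet2_abc ICE1 still led at 20.6 ± 4.11 TPM, but FAMA came next at 5.63 ± 0.635, STOMAGEN stood at 2.27 ± 0.957, below MUTE at 2.32 ± 0.462, and BASL was last at 1.19 ± 0.418. From FAMA downward the libraries of all neighbours in pnet2_abc overlapped. Summed over the 10 genes, the level was 170 ± 6.92 TPM in WT, 159 ± 12.9 in pnet2_ac, 159 ± 7.51 in pnet2_bc and 46.0 ± 6.84 in pnet2_abc. FAMA made up 3.82% of that sum in WT and 12.4% in pnet2_abc, ICE1 29.7% and 44.8%, and STOMAGEN 28.8% and 4.90%.

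**Figure D1:**
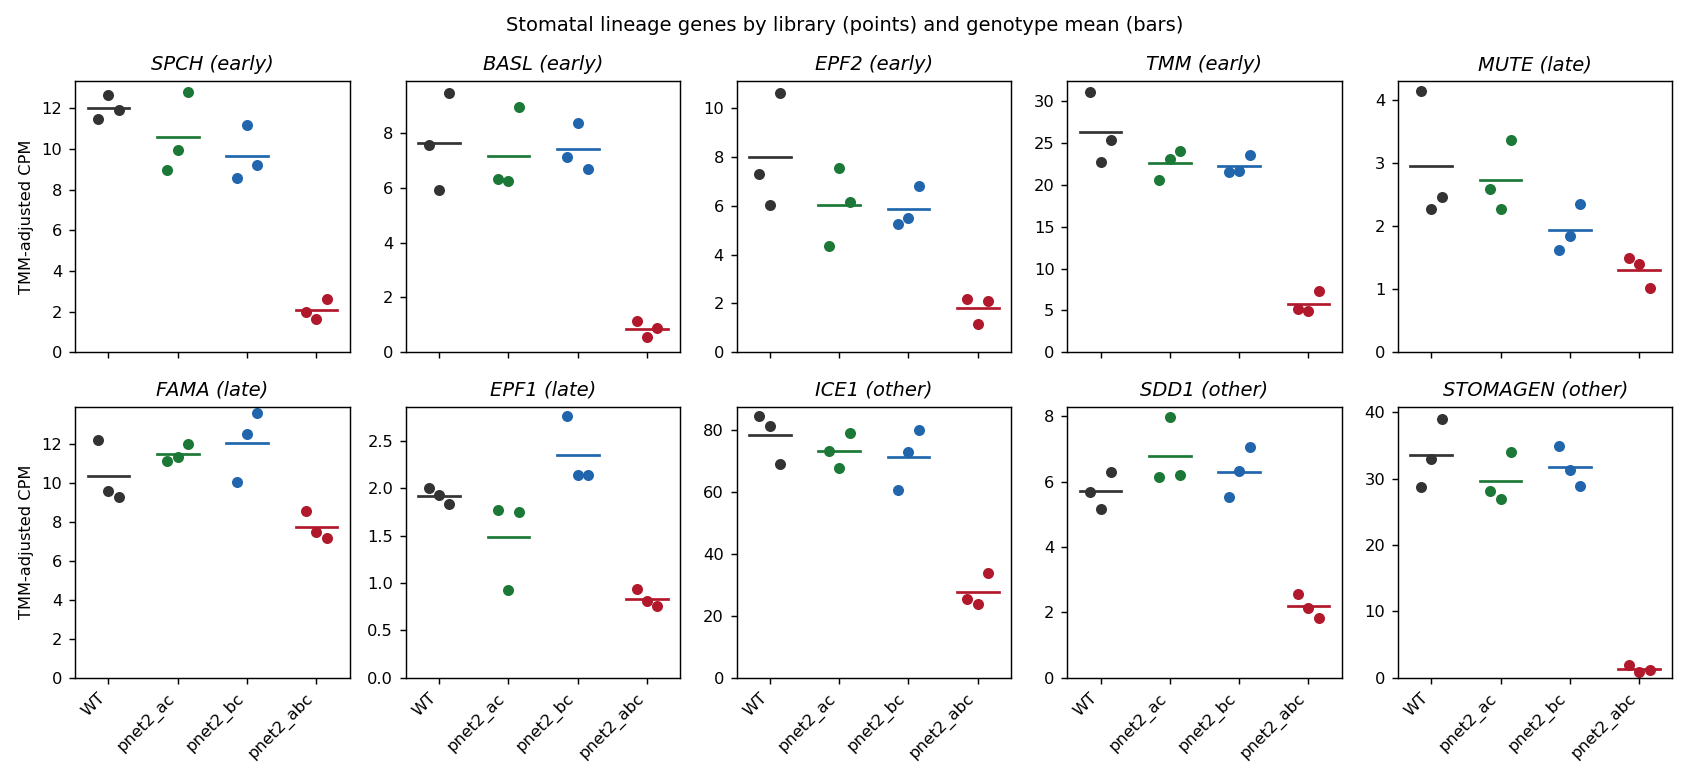
TMM-adjusted CPM of each lineage gene (1 panel a gene, each on its own vertical axis from 0), with the 3 libraries of a genotype as points and their mean as a bar. The pnet2_abc libraries lie below all WT libraries in each of the 10 panels, by the widest ratio for STOMAGEN (0.936 to 1.94 against 28.7 to 38.9 CPM) and the narrowest for FAMA (7.21 to 8.56 against 9.31 to 12.2 CPM).

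The comparison of each mutant with WT asks whether these transcripts differ in lines with mutated PNET2 genes. All 10 genes were lower in pnet2_abc than in WT at an adjusted p under 0.05 (called) by edgeR's quasi-likelihood test, with no overlap between the libraries, where 32% of all tested genes were called lower and 33.6% lay lower without overlap. The median log2 fold change of the 10 was -1.82, against 0.011 over all tested genes. It was -2.35 for the 4 early genes, -1.17 for the 3 late genes and -1.5 for the other 3. The call of FAMA, the smallest change, was lost in 7 of 22 alternative settings. In whole seedlings, fewer cells of a type and less RNA per cell cannot be told apart.

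SPCH, the factor that starts the lineage, stood at 11.5, 12.6 and 11.9 CPM in WT, 8.98, 9.96 and 12.8 in pnet2_ac, 8.55, 11.2 and 9.20 in pnet2_bc and 1.98, 1.66 and 2.64 in pnet2_abc. The pnet2_abc libraries were the lowest, far under the others, while pnet2_ac overlapped WT and all 3 pnet2_bc libraries lay just under it. In pnet2_abc SPCH was 5.72-fold lower than in WT (log2 fold change -2.52 ± 0.20, SE, adjusted p = 1.02e-07).

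BASL is a protein of asymmetric divisions that sits at the cell edge. It stood at 7.58, 5.93 and 9.46 CPM in WT and 6.33, 6.25 and 8.96 in pnet2_ac. In pnet2_bc it stood at 7.13, 8.38 and 6.70 CPM and in pnet2_abc at 1.13, 0.567 and 0.880. WT and both double mutants overlapped, and all 3 pnet2_abc libraries lay far below the lowest of them. It was 8.88-fold lower in pnet2_abc than in WT (-3.15 ± 0.27 on the log2 scale, adjusted p = 2.92e-07).

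EPF2, the peptide that early lineage cells secrete to limit entry divisions nearby, stood at 7.29, 6.04 and 10.6 CPM in WT, 4.36, 7.54 and 6.15 in pnet2_ac, 5.25, 5.52 and 6.80 in pnet2_bc and 2.18, 1.16 and 2.1 in pnet2_abc. Its WT libraries were among the more scattered, and those of the double mutants reached below and into their range. The fall in pnet2_abc was 4.40-fold (-2.14 ± 0.29, adjusted p = 2.59e-05).

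TMM, the receptor-like protein that shapes the response to these peptides, stood at 31.1, 22.7 and 25.4 CPM in WT, 20.6, 23.1 and 24.1 in pnet2_ac, 21.6, 21.6 and 23.6 in pnet2_bc and 5.23, 4.88 and 7.28 in pnet2_abc. WT replicate 1 was the highest library, and the double mutants overlapped the lower part of the WT range. In the triple mutant TMM was 4.55-fold below WT (-2.18 ± 0.16, adjusted p = 4.24e-08).

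The late genes had smaller log2 fold changes than the early ones, a difference that was not tested. MUTE, which commits the precursor to become a guard mother cell, stood at 4.14, 2.27 and 2.46 CPM in WT, 2.58, 2.27 and 3.36 in pnet2_ac, 1.62, 1.85 and 2.35 in pnet2_bc and 1.5, 1.40 and 1.02 in pnet2_abc. WT replicate 1 stood above all other libraries of MUTE, and the lowest WT library was 2.27 CPM against a highest pnet2_abc library of 1.5 CPM. MUTE was 2.26-fold lower in pnet2_abc than in WT (-1.17 ± 0.31, adjusted p = 0.00426).

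FAMA, which sets the last division and guard cell fate, stood at 12.2, 9.59 and 9.31 CPM in WT, 11.2, 11.4 and 12 in pnet2_ac, 10.1, 12.5 and 13.6 in pnet2_bc and 8.56, 7.49 and 7.21 in pnet2_abc. Both double mutants lay in or above the WT range, and the pnet2_abc libraries just under it. The difference of pnet2_abc from WT was 1.34-fold (-0.42 ± 0.14, adjusted p = 0.0207). It was -0.23 (adjusted p = 0.201) with libraries scaled by their totals alone and -0.29 (adjusted p = 0.104) without WT replicate 1, the highest WT library.

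EPF1, the later peptide that spaces stomata, stood at 2.00, 1.93 and 1.84 CPM in WT, 1.77, 0.927 and 1.75 in pnet2_ac, 2.76, 2.14 and 2.14 in pnet2_bc and 0.940, 0.808 and 0.760 in pnet2_abc. All pnet2_ac libraries lay under WT and all pnet2_bc libraries above it, while pnet2_abc was lowest apart from pnet2_ac replicate 2, which stood within its range. EPF1 was 2.30-fold lower in pnet2_abc than in WT (-1.20 ± 0.31, adjusted p = 0.00386).

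Of the 3 genes outside both groups, STOMAGEN changed most. This mesophyll-derived peptide, which promotes stomata by competing with the restraining peptides, stood at 28.7, 32.9 and 38.9 CPM in WT, 28.1, 26.9 and 34.0 in pnet2_ac, 35.0, 31.4 and 28.8 in pnet2_bc and 1.94, 0.936 and 1.13 in pnet2_abc. WT and the double mutants filled one range, and the pnet2_abc libraries, the highest at 1.94 CPM, lay apart far below it. The fall was 25.1-fold (-4.65 ± 0.23, adjusted p = 1.2e-09), and 0.883% of all tested genes had a lower log2 fold change in this comparison.

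ICE1, the bHLH partner of SPCH, MUTE and FAMA that is also known from the cold response, stood at 84.3, 81.3 and 68.9 CPM in WT, 73.0, 67.7 and 78.8 in pnet2_ac, 60.6, 72.8 and 80.0 in pnet2_bc and 25.5, 23.7 and 33.8 in pnet2_abc. The double mutants overlapped WT and pnet2_abc stood apart below. It was 2.82-fold lower in pnet2_abc (-1.5 ± 0.14, adjusted p = 6.2e-07).

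SDD1, a subtilisin-like protease that limits stomatal number, stood at 5.69, 5.16 and 6.29 CPM in WT, 6.15, 7.99 and 6.21 in pnet2_ac, 5.54, 6.32 and 7.06 in pnet2_bc and 2.58, 2.14 and 1.83 in pnet2_abc. Here the double mutants reached the WT range or higher, and pnet2_abc again lay apart below. The triple mutant was 2.62-fold under WT (-1.39 ± 0.19, adjusted p = 2.21e-05).

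Set in the order of all 23330 tested genes by log2 fold change in pnet2_abc against WT, the early genes lay near the low end: 2.28% of genes were lower than BASL, 3.96% lower than SPCH, 5.79% lower than TMM and 6.2% lower than EPF2. The late genes lay further up, with 17.0% of genes lower than EPF1, 17.3% lower than MUTE and 34.2% lower than FAMA. ICE1 and SDD1 came between, at 12.5% and 14.0%.

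**Figure D2:**
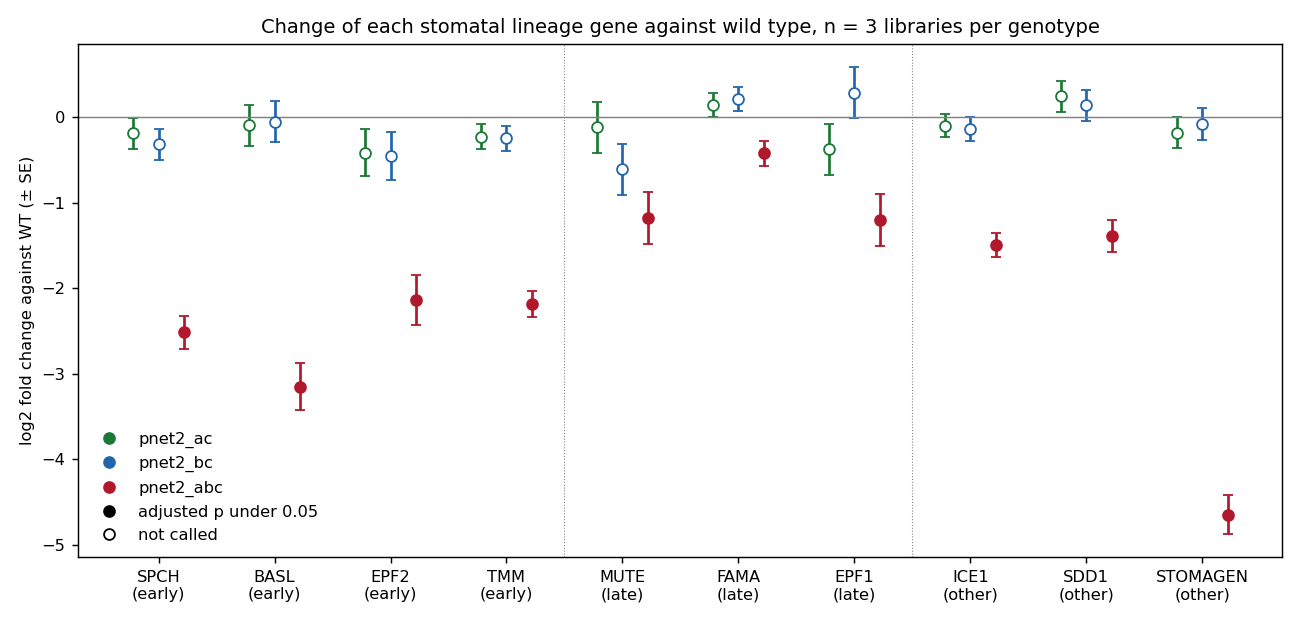
Log2 fold change of each lineage gene against WT (vertical axis, bars are SE from edgeR, n = 3 libraries a genotype) in pnet2_ac, pnet2_bc and pnet2_abc, with filled points for an adjusted p under 0.05. All filled points belong to pnet2_abc, where the values run from -4.65 for STOMAGEN to -0.42 for FAMA, whose call was lost in 7 of 22 alternative settings. Those of the double mutants lie between -0.61 and 0.29.

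No lineage gene was called in either double mutant. In pnet2_ac against WT 0 of 10 were called by edgeR, where 1.14% of all tested genes were, and 0 of 10 had an unadjusted p under 0.05 by edgeR, DESeq2 or limma. In pnet2_bc against WT 0 of 10 were called, where 0.643% of all tested genes were, and again 0 of 10 had an unadjusted p under 0.05 by any of these tools. The log2 fold changes ran from -0.41 (EPF2) to 0.25 (SDD1) in pnet2_ac, with a median of -0.14, and from -0.61 (MUTE) to 0.29 (EPF1) in pnet2_bc, with a median of -0.11. Their SE ranged from 0.14 to 0.30.

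Some lineage genes nevertheless had no overlap between a double mutant and WT. EPF1 lay below WT in pnet2_ac (log2 fold change -0.37 ± 0.30, adjusted p = 0.645) and above it in pnet2_bc (0.29 ± 0.30, adjusted p = 0.809). SPCH lay below WT in pnet2_bc (-0.31 ± 0.18, adjusted p = 0.585). Of all tested genes, 9.91% lay lower without overlap in pnet2_ac, and 8.35% lower and 8.68% higher in pnet2_bc, so 1 of 10 in each is near the background. The 4 early genes were on the lower side of WT in both double mutants, from -0.41 to -0.094 in pnet2_ac and from -0.45 to -0.048 in pnet2_bc, with none called. Both comparisons share the WT libraries.

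Between the double mutants, 0 of 10 lineage genes were called in pnet2_bc against pnet2_ac by edgeR, where 0.257% of all tested genes were. EPF1 alone had an unadjusted p under 0.05, by edgeR, DESeq2 and limma, with a log2 fold change of 0.66 ± 0.30 (adjusted p = 0.45). Its libraries did not overlap, standing at 2.14 to 2.76 CPM in pnet2_bc and 0.927 to 1.77 CPM in pnet2_ac, as 9.24% of all tested genes did in that direction.

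The triple mutant was also compared with each double mutant, which differ from it by 1 further mutated gene. Against pnet2_ac, 10 of 10 genes were lower, where 32.2% of all tested genes were called lower. The log2 fold changes ran from -4.47 ± 0.23 for STOMAGEN to -0.57 ± 0.14 for FAMA (adjusted p = 0.00366). The libraries of 9 of the 10 did not overlap, where 35% of all tested genes lay lower without overlap, and those of EPF1 did (-0.83 ± 0.31, adjusted p = 0.0309), and its call was lost in 7 of 21 alternatives, with an adjusted p up to 0.114. Against pnet2_bc, 9 of 10 genes were lower, where 32.3% of all tested genes were. MUTE was the exception at -0.57 ± 0.30 (adjusted p = 0.121). Its pnet2_bc libraries (1.62 to 2.35 CPM) lay above those of pnet2_abc (1.02 to 1.5 CPM). In this comparison 35.2% of all tested genes lay lower in pnet2_abc without overlap. FAMA was called against both double mutants in all 22 alternatives, at -0.64 ± 0.14 (adjusted p = 0.0016) against pnet2_bc.

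The balance of late to early steps was read within each library, as the mean log2 CPM of MUTE, FAMA and EPF1 minus that of SPCH, BASL, EPF2 and TMM. It was -1.35, -1.53 and -1.92 in WT, -1.19, -1.82 and -1.46 in pnet2_ac and -1.35, -1.48 and -1.29 in pnet2_bc. In pnet2_abc it was 0.030, 0.42 and -0.46, so every triple mutant library lay above every other library. The genotype means were -1.60 ± 0.29 (SD) in WT, -1.49 ± 0.32 in pnet2_ac, -1.37 ± 0.10 in pnet2_bc and -0.00055 ± 0.44 in pnet2_abc. The difference of pnet2_abc from WT was thus 1.60, and between these genotypes the early mean differed by -2.52 and the late mean by -0.92 on the log2 scale. These values describe groups of genes chosen with results known, and no test was made of them. The spread in pnet2_abc was the widest, with replicate 2 highest and replicate 3 lowest.

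Ratios of single genes, per length from TPM, showed where this shift lay. MUTE per SPCH was 0.342 to 0.689 in WT, 0.434 to 0.548 in pnet2_ac, 0.315 to 0.486 in pnet2_bc and 0.741 to 1.61 in pnet2_abc. FAMA per SPCH was 0.593 to 0.833 in WT, 0.733 to 0.971 in pnet2_ac, 0.874 to 1.16 in pnet2_bc and 2.13 to 3.53 in pnet2_abc. In WT libraries SPCH therefore exceeded FAMA, and in pnet2_abc FAMA exceeded SPCH in each library. All pnet2_bc libraries also lay above WT for FAMA per SPCH, with SPCH lower (-0.31) and FAMA higher (0.22 on the log2 scale) and neither called.

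For the peptides, EPF1 per EPF2 was 0.165 to 0.306 in WT, 0.118 to 0.387 in pnet2_ac, 0.301 to 0.503 in pnet2_bc and 0.346 to 0.665 in pnet2_abc. The pnet2_abc libraries lay above WT and overlapped both double mutants. Between the late factors, FAMA per MUTE was 1.21 to 1.73 in WT, 1.46 to 2.05 in pnet2_ac, 2.38 to 2.77 in pnet2_bc and 2.18 to 2.88 in pnet2_abc. All libraries of pnet2_bc and pnet2_abc stood above WT for this ratio, whereas pnet2_ac overlapped WT. In pnet2_bc neither MUTE (-0.61, adjusted p = 0.496) nor FAMA (0.22, adjusted p = 0.651) was called by edgeR. Of single tested genes, 8.35% lay lower and 8.68% higher than WT without overlap in pnet2_bc. The share of ratios that lie apart was not counted over all genes.

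**Figure D3:**
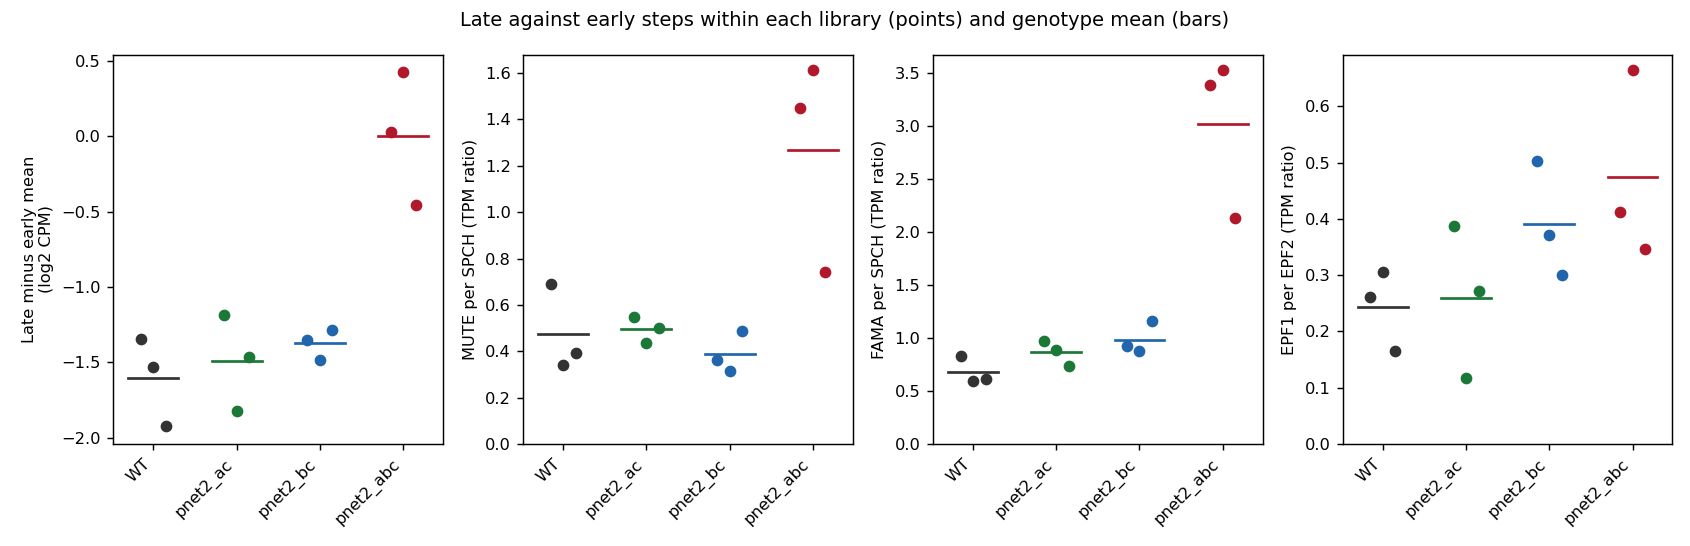
Late against early steps in each library (points) with the genotype mean (bars). The first panel plots the mean log2 CPM of MUTE, FAMA and EPF1 minus that of SPCH, BASL, EPF2 and TMM, and the others plot TPM ratios from 0. The pnet2_abc libraries lie above all others for the first 3 measures (-0.46 to 0.42, 0.741 to 1.61 and 2.13 to 3.53), while for EPF1 per EPF2 they overlap both double mutants.

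The genes did not vary alike between libraries of a genotype. The coefficient of variation of CPM in WT was 4.22% for EPF1 and 4.93% for SPCH, 29.7% for EPF2 and 34.9% for MUTE. In pnet2_abc it was 9.19% for FAMA, 23.9% for SPCH and 39.6% for STOMAGEN. Across the 12 libraries, log2 CPM of SPCH and TMM had a Pearson r of 0.984, but over the 9 libraries other than pnet2_abc it was 0.445, and for SPCH and FAMA the values were 0.779 and -0.177. The r over 12 libraries rests on the gap between pnet2_abc and the rest.

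By Pearson r of log2 CPM over the 12 libraries, among 15692 other genes whose mean reached 5 CPM, the pattern most like SPCH was that of AT1G14430 (0.996, and 0.876 over the 9 libraries other than pnet2_abc). It was followed by AT5G39080 (0.992 and 0.744), AT1G60000 (0.991 and 0.812), RGF6 (0.991 and 0.700) and HB30 (0.991 and 0.756). Most like FAMA were AT5G12100 (0.942 and 0.870), KASI (0.934 and 0.781), FRU (0.931 and 0.736), SBT1.3 (0.930 and 0.946) and AT1G78930 (0.925 and 0.753). None of the 5 nearest to FAMA reached the r of those nearest to SPCH. The 12 points hold the gap between pnet2_abc and the other genotypes, and these values are a description.

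Around the 10 genes, a list of 33 further genes of the stomatal pathway was read, of which 32 were tested and MKK7 was too low. In pnet2_abc against WT, 9 were higher, 19 lower and 4 not called (CRSP, YDA, BRXL2 and CYCD5;1), where 32.5% of all tested genes were higher and 32% lower. In both pnet2_ac and pnet2_bc against WT 0 of 32 were called by edgeR. The list's median log2 fold change in pnet2_abc was -0.40, against 0.011 over all tested genes. Of the 28 called, 21 changed by at least 1.5-fold and are given with their values.

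On the ligand and receptor side all 3 peptides of the list and 5 of 7 receptors and coreceptors were lower in pnet2_abc, 2 coreceptors were higher, and CRSP, a protease that acts on EPF2, was not called. The calls of ERL1 (-0.39) and SERK1 (-0.42) were lost in 10 and 3 of 22 alternatives. ER, the ERECTA receptor kinase that perceives the peptides, went from 83.7 ± 9.16 CPM in WT to 18.5 ± 3.83 in pnet2_abc (log2 fold change -2.18 ± 0.14, adjusted p = 1.78e-08). Its relative ERL2 fell by 0.80 on the log2 scale, and the coreceptor SERK2 fell by 0.78. The coreceptors BAK1 and SERK4, which also serve immune and brassinosteroid receptors, rose by 0.83 and 1.25. Among the peptides related to EPF1 and EPF2, EPFL6 fell by 2.88, EPFL5 by 1.30 and EPFL4 by 1.17. The call of EPFL4 was lost in 3 of 21 alternatives, with an adjusted p up to 0.0644.

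Of 7 tested kinases on the list 6 were higher in pnet2_abc, 0 lower and YDA, at the head of the MAP kinase cascade, not called. MPK3, a terminal MAP kinase, rose from 41.3 ± 0.966 to 124 ± 10.5 CPM (1.58 ± 0.09, adjusted p = 6.34e-09). MPK6, the other terminal kinase on the list, rose much less, from 48.4 ± 3.77 to 59.2 ± 1.39 CPM (0.29), a call lost in 0 of 22 alternatives. The kinases above MPK3 rose too, MKK4 by 1.63, MKK9 by 1.46 and MKK5 by 1.21. BIN2, a kinase of brassinosteroid signalling outside the cascade, was higher by 0.14 (adjusted p = 0.0369), a call lost in 10 of 22 alternatives with an adjusted p up to 0.13. These kinases also act in immune and stress signalling. Opposite-strand genes overlap MKK5 by 459 bases, MPK6 by 267 and 45 and MPK3 by 192. Same-strand genes overlap BIN2 by 1284 bases and MKK4 by 204. The strand setting of the counting is not given, so reads from the shared bases could come from either gene.

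All 6 transcription factors on the list were lower in pnet2_abc, the lowest being SCRM2, the relative of ICE1 and fellow partner of SPCH, at 48.2 ± 2.30 CPM in WT and 5.01 ± 0.910 in pnet2_abc (-3.27 ± 0.27, adjusted p = 1.91e-07). The SCRM2 libraries were scattered in pnet2_ac, from 21.4 to 48.0 CPM (mean 30.4 ± 15.3), against 45.7 to 50.2 in WT and 48.1 to 49.3 in pnet2_bc. SCRM2 was called in neither double mutant. SOL2 and SOL1, which help cells move from one lineage fate to the next, fell by 2.50 and 1.99 in pnet2_abc, and HDG2, a homeodomain factor that promotes stomatal fate, fell by 0.90. The calls of the other factors, FLP (-0.56) and MYB88 (-0.39), were lost in 5 and 6 of 22 alternatives, among them library size alone and TPM, which left 4 of the 6 factors called. POLAR, which sits with BASL at the cell edge, stood at 14.5 ± 1.81 CPM in WT and 1.28 ± 0.519 in pnet2_abc (-3.50 ± 0.24, adjusted p = 2.63e-08). Opposite-strand genes overlap SOL2 by 716 bases, SOL1 by 580, POLAR by 310 and HDG2 by 1667.

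Among 6 division genes 4 were lower, 1 higher and 1 not called, where 32% of all tested genes were lower and 32.5% higher. The call of RBR1 (-0.37) was lost in 2 of 22 alternatives. Of the 5 calls, 4 were kept on TPM with a pseudocount of 0.1 and 3 with a pseudocount of 1. CYCA2;3, a cyclin of the division that forms the guard cell pair, fell by 2.17 on the log2 scale and CDKB1;1, its kinase partner, by 0.89, while CYCA2;2 rose by 0.93. CYCD7;1, a cyclin of the guard mother cell, had 57 counts over the 3 WT libraries and 0 over the 3 pnet2_abc libraries, at least 19.7-fold lower against 3 counts over the group. That call was lost on TPM with a pseudocount of 1 (adjusted p = 0.111). CYCD7;1 had 65 counts over the pnet2_ac libraries and 90 over those of pnet2_bc, of which replicate 1 held 65 and the other libraries 25.

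Markers of guard cells and of other cell types that a seedling holds moved as well in pnet2_abc. Of 12 guard cell markers 8 were lower, 0 higher and 4 not called (SLAC1, ALMT12, HT1 and GORK), with a median log2 fold change of -0.71, and their summed level was 1330 to 1674 CPM in WT and 272 to 310 in pnet2_abc. Of all tested genes 32% were lower. TGG1 and TGG2 made up 91.7% of the WT sum. Without them the other 10 summed to 120.2 to 123 CPM in WT, 97.4 to 107 in pnet2_ac, 115 to 129 in pnet2_bc and 70.7 to 74.0 in pnet2_abc. The pnet2_ac sums thus lay below WT without overlap, as 9.91% of single tested genes did. Their mean was 122 CPM in WT and 103 in pnet2_ac, and most of that gap was GC1, at 54.8 and 37.9 CPM. The median log2 fold change of the 12 markers in pnet2_ac was -0.075. In pnet2_abc the call of SCAP1 was lost in 7 of 21 alternatives, that of MPK12 in 3 of 22 and that of KAT1 in 1 of 22. This left 6 of the 8 with library size alone and 5 on TPM with a pseudocount of 1. The myrosinases TGG1 and TGG2 changed by -2.24 and -4.50 on the log2 scale. The inward potassium channels KAT1 and KAT2 changed by -0.59 and -1.51, and the guard cell factor MYB60 by -1.35.

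Of 6 epidermis markers 4 were lower, 1 higher and 1 not called. The epidermal identity factors ATML1 and PDF2 fell by 1.88 and 1.67 and PDF1 by 2.71, while LTP1, a lipid transfer protein, rose by 0.59. The sum over the list was 1601 to 1794 CPM in WT and 1546 to 1847 in pnet2_abc. PDF1, FDH, CER6 and LTP1 made up 88.3% of the WT sum, and LTP1 alone went from a mean of 712 to 1069 CPM. Without these 4, ATML1 and PDF2 summed to 183 to 217 CPM in WT and 50.1 to 71.6 in pnet2_abc. Of 5 trichome markers 4 were lower, and the sum over the list was 22.1 to 25.6 CPM in WT and 3.15 to 5.40 in pnet2_abc.

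Of 5 mesophyll markers all 5 were lower, with a median of -2.16 and sums of 34887 to 39010 CPM in WT and 8598 to 9552 in pnet2_abc. CAB3, LHCB2.1 and the RBCS genes have near-identical copies, so their counts are uncertain. Of 6 root markers 1 was higher (RHD6, adjusted p = 0.0499, a call lost in 15 of 21 alternatives) and 5 were not called, with sums of 2157 to 2380 and 2063 to 2135 CPM. PYK10 made up 99.1% of the WT sum, and the other 5 summed to 14.6 to 26.5 CPM in WT and 13.2 to 28.1 in pnet2_abc. No gene of these marker lists was at 0 over a genotype. In pnet2_ac the guard cell marker GC1 and the epidermis markers FDH and CER6 were lower, and in pnet2_bc 0 of the 34 markers were called, where 1.14% and 0.643% of all tested genes were called in either direction. Sums over the epidermis list were 1340 to 1440 CPM in pnet2_ac. They lay below WT (1601 to 1794 CPM) without overlap, as 9.91% of single tested genes did. The 6 epidermis markers changed by -0.41 to -0.22 in pnet2_ac, with a median log2 fold change of -0.29. The part of cell makeup in the changes of the lineage genes was not tested.

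**Figure D4:**
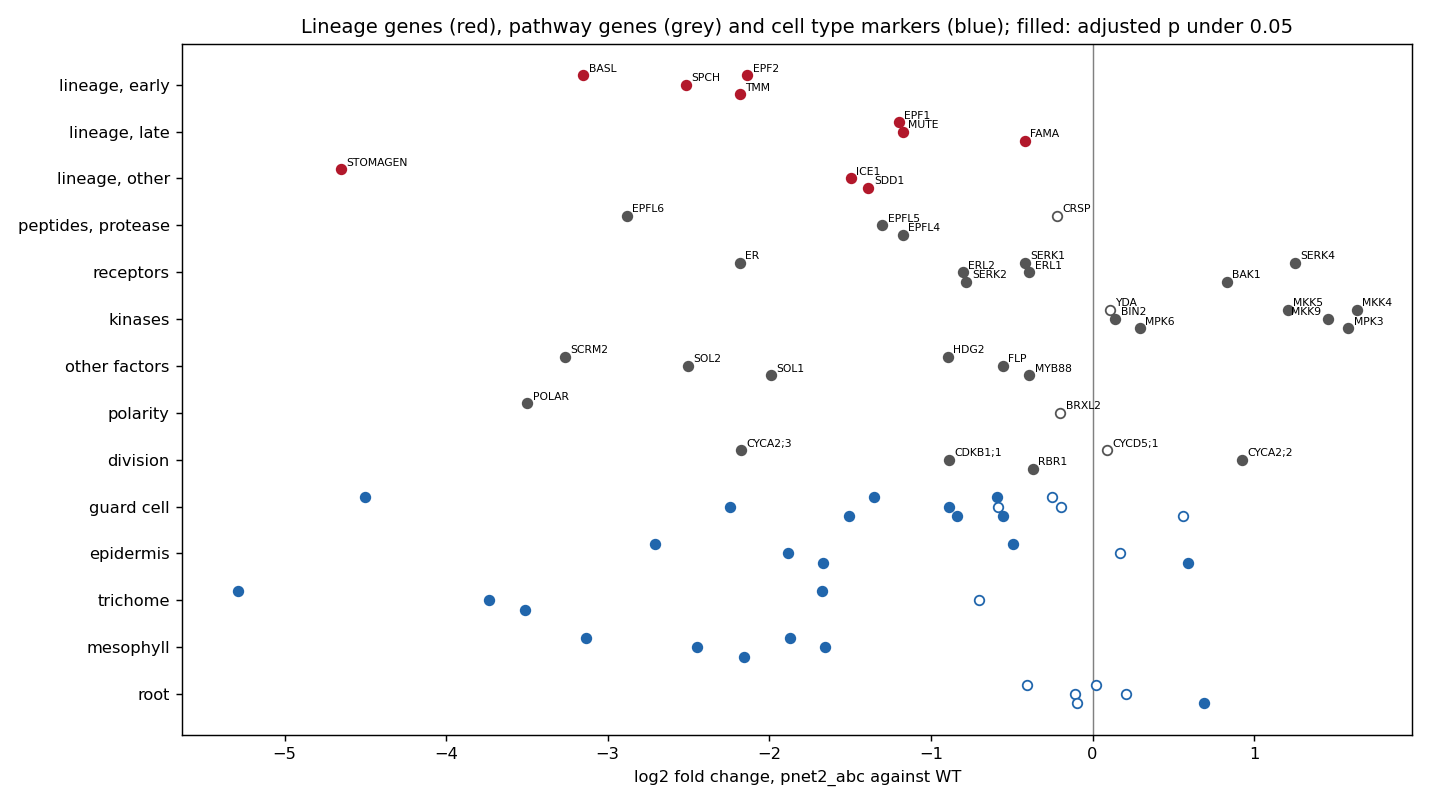
Log2 fold change in pnet2_abc against WT (horizontal axis) of the lineage genes (red), the other pathway genes by role (grey) and cell type markers (blue), each point 1 gene, filled for an adjusted p under 0.05. CYCD7;1, with 0 counts in pnet2_abc, and MKK7, not tested, are left out. CRSP is the protease beside the peptides. The kinases lie right of 0 (0.11 to 1.63, with YDA at 0.11 not called), whereas the lineage genes (-4.65 to -0.42), the other factors (-3.27 to -0.39) and the mesophyll markers (-3.14 to -1.66) all lie left of it.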

How the data were processed

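Messenger RNA was sequenced from 12 libraries (strand-specific preparation, paired reads), and samples were grouped by genotype from their titles. The authors deposited whole-number read counts per gene. HISAT2 2.0.4, HTSeq 0.6.1p1 and the build TAIR10 are named in the submitters' processing notes, without roles or strand setting. The deposited TPM values came from kallisto, per the file name, with version and index not given; a column of the largest estimated count per gene in that deposited table was not used. TPM was used to compare levels between genes.

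From the counts, edgeR 4.0.16 in R 4.3.3 was used with filterByExpr, TMM scaling and 1 quasi-likelihood model of genotype over all 12 libraries, which left 8 residual degrees of freedom. P-values of the 6 pairwise comparisons were adjusted by Benjamini-Hochberg over 23330 tested genes. The method was also run on simulated counts in which few genes changed, as many up as down. In pnet2_abc against WT 64.5% of tested genes were called, so that run cannot tell how the method behaves in this comparison. SE came from the test statistic. CPM is counts on TMM-adjusted library sizes. Intervals and floors cover counting error only. Pairs of libraries of a genotype differed beyond counting noise, with a chi-square of 31.2 to 48.9 per degree of freedom, so each was kept.

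The members and gene lists were chosen with earlier results of these data known. Pathway genes were named with values where called in a comparison with WT at 1.5-fold or more. Other pathway genes given, RHD6 and the markers given were named after their values were seen. The reference annotation, TAIR10.1, was joined by gene ID, and its coordinates are those of TAIR10.1. It lists FAMA as FMA; the names SOL2, CRSP and GC1 are not in it and were given to AT4G14770, AT1G20160 and AT1G22690. Alternatives were DESeq2 1.42.0, limma 3.58.1 on log2(TPM + 0.1) and log2(TPM + 1), other filters, scalings and fits, a replicate block and the omission of each library.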

Additional observations from a re-analysis of the deposited data

How the results depend on the processing

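The 60 member results (10 genes in 6 comparisons) gave 1308 values under 22 alternative settings, of which 14 lost a call, 0 gained one and 0 reversed a called direction. The losses were FAMA in pnet2_abc against WT (7) and EPF1 in pnet2_abc against pnet2_ac (7). FAMA stood at -0.23 (adjusted p = 0.201) with library size alone, at -0.20 (0.297) and -0.17 (0.3) on TPM with a pseudocount of 0.1 and 1, at -0.29 (0.104), -0.40 (0.0571) and -0.37 (0.0702) without WT replicate 1, pnet2_abc replicate 2 or pnet2_abc replicate 3, and at -0.29 (0.119) without WT replicate 1 and pnet2_ac replicate 2 together, chosen after seeing the data. Library size alone and TPM moved the median of all genes to between 0.17 and 0.22, and relative to that median FAMA was -0.43, -0.42 and -0.34, against -0.43 with TMM scaling. MUTE and EPF1 were not tested with a minimum mean of 5 CPM.

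Leaving out each library in turn gave 9 to 10 members lower in pnet2_abc against WT, 9 to 10 against pnet2_ac, 9 against pnet2_bc and 0 in the other comparisons. The late-minus-early difference from WT ranged from 1.39 to 1.83 in pnet2_abc, from -0.052 to 0.27 in pnet2_ac and from 0.065 to 0.35 in pnet2_bc, where it was 0.075 without EPF1 among the late genes (0.23 with it). Of the 7 pathway calls under 1.5-fold, 6 were lost in at least 1 alternative, and the list's counts ranged from 8 to 10 higher and 13 to 19 lower. With the replicate number as a block, 10, 10 and 9 members were lower in pnet2_abc against WT, pnet2_ac and pnet2_bc. The numbers do not pair the libraries: the 18 same-number correlations ran from -0.0351 to 0.0561.

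Over all genes, calls ranged from 17 to 1101 in pnet2_ac (266 as reported, 1101 by DESeq2, 17 without WT replicate 1 and pnet2_ac replicate 2) and from 29 to 680 in pnet2_bc (150 as reported, 680 by DESeq2, 29 without pnet2_bc replicate 2). The share of called genes that were higher moved with library size alone from 39.5% to 67.6% in pnet2_ac, from 46.7% to 61.0% in pnet2_bc and from 50.4% to 60.2% in pnet2_abc. The causes were not tested.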
